A study of Mus musculus with 12 samples.

Results

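The genes described here are 6 epithelial membrane-anchored serine proteases and relatives, *St14*, *Prss8*, *Prss22*, *Tmprss2*, *Tmprss4* and *Hpn*, and the 2 Kunitz inhibitors *Spint1* and *Spint2*. They were chosen by name, for what their products do, and all 8 were among the 15687 genes measured. RNA was sequenced from 12 subcutaneous tumors grown from mTc11, a lung cancer line of mouse. The 6 control (CTL) tumors came from cells with a scrambled shRNA and the 6 *Filip1l*-knockdown (KD) tumors from cells with a lentiviral shRNA against *Filip1l*, in both cases mixed clones kept by puromycin selection. Cells in Matrigel were injected into male C57BL6/J mice aged 8 weeks, hosts with an intact immune system, and the tumors were taken on day 24. Of the 2 shRNA sequences made for this line, the sources used here do not state which the sequenced tumors carried, and each tumor also holds host tissue. The labels call the tumors biological replicates, and p-values measure the spread between these tumors only.

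Serine proteases of this kind are made as inactive precursors at the epithelial cell surface and are switched on by a cut after a basic residue. Matriptase, encoded by *St14*, can activate itself and prostasin, encoded by *Prss8*, and the proteases then process growth factors, receptors, channels and adhesion proteins. The Kunitz inhibitors of *Spint1* and *Spint2* sit in the same membranes and block matriptase, prostasin, hepsin and the hepatocyte growth factor activator. In intact epithelium the proteases and inhibitors are usually made together, and the balance between them is studied in carcinomas of many organs.

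The site that makes each gene a protease or an inhibitor is short enough to print. The 30-base coding stretches below, from the transcripts of GENCODE vM21 on mouse build GRCm38, surround the codon of the active site serine in each protease, and that codon is in capitals. They are shown because they divide the proteases by the serine codon they use.
St14: tgccagggtgacTCTggtggccccttgtca
Prss8: tgccagggtgacTCTgggggcccactctct
Prss22: tgtctgggcgacTCTgggggtcccctgatg
Tmprss2: tgccagggagacAGTggagggccgctggtt
Tmprss4: tgccagggtgacAGTggtgggcctttgatg
Hpn: tgccagggcgacAGTggaggcccctttgtg

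*St14*, *Prss8* and *Prss22* used TCT and *Tmprss2*, *Tmprss4* and *Hpn* used AGT. Of the 30 positions, 17 held the same base in all 6 genes. Pairs of stretches shared from 20 to 25 bases, with the highest value for *St14* and *Prss8*. Each stretch lies on the minus strand and crosses an exon junction, so that its coordinates include an intron. It was at chr9:31090004-31090407 in *St14* (exons 18 and 19 of 19), chr7:127926617-127926750 in *Prss8* (exons 5 and 6 of 6) and chr17:23994021-23994604 in *Prss22* (exons 5 and 6 of 6). The others were at chr16:97567152-97567601 in *Tmprss2* (exons 12 and 13 of 14), chr9:45173984-45175107 in *Tmprss4* (exons 11 and 12 of 13) and chr7:31099356-31099511 in *Hpn* (exons 11 and 12 of 13).

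Each inhibitor has 2 Kunitz domains, and the residue after the second cysteine of such a domain enters the pocket of the protease. The stretches below hold that codon in capitals, and they are shown because it is the position at which an inhibitor of this type meets the cut site of its target.
Spint1 domain 1: gtgggccgctgcCGGggctccttcccacgc
Spint1 domain 2: actgggttttgcAAGgagaacatcccacgc
Spint2 domain 1: gtggggaaatgcCGGgcttccatccccagg
Spint2 domain 2: actgggccgtgcCGCgcagccttccctcgc

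All 4 codons read as a basic residue in the standard code. In *Spint1*, on the plus strand, they were within chr2:119245760-119245789 (exon 4 of 10) and chr2:119248034-119248063 (exon 8). In *Spint2*, on the minus strand, they were within chr7:29263713-29263742 (exon 2 of 7) and chr7:29258536-29258565 (exon 5).

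The values are normalized counts, reads per gene divided by a size factor for each tumor. Reads were inferred from the smallest step between the values of each tumor. By that inference, reads on the genes measured numbered 17834745 to 29502069 per CTL tumor and 25460564 to 32419578 per KD tumor. In CTL 1, CTL 4 and KD 1 the step was close to 1 (1.000, 0.997 and 1.008), where reads cannot be told from rounded values. The counting errors given below rest on the same inference. *Filip1l* itself was 2311 ± 211 normalized counts in CTL and 1924 ± 165 in KD tumors (SD, 6 tumors each), or -0.26 as log2 fold change (limma, adjusted p = 0.00998), and 5 of the 6 KD tumors were below every CTL tumor. Of 18 epithelium markers, 16 were measured, with *Krt8* at 56576 ± 6449 in CTL tumors and *Grhl2* and *Ovol1* were not among the genes analysed here. Summed over the list, epithelium markers ran from 153675 to 200317 normalized counts in CTL and from 220704 to 403274 in KD tumors, so the groups did not overlap. Of the list, 10 of 16 genes were higher and 0 lower at an adjusted p under 0.05, beside 41.9% of all genes in either direction. The median log2 fold change was 0.61 against 0.01 over all genes.

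In KD tumors 5 of the 8 genes were higher and 1 was lower at an adjusted p under 0.05 (limma on log2 of the normalized count plus 1, adjusted over all 15687 genes). Both inhibitors rose, *Spint1* about 3.09-fold and *Spint2* 1.95-fold. The transmembrane proteases *St14*, *Tmprss2* and *Tmprss4* rose from 1.84-fold to 2.14-fold. *Prss22* fell, while *Prss8* and *Hpn*, the genes with the fewest reads, did not pass. This made 6 of 8 genes past the p threshold, beside 41.9% of all genes. With the further requirement of an absolute log2 fold change over 1, the calls were *Spint1* and *Tmprss4*. They made 2 of 8 genes called in either direction beside 10.2% of all genes, 2 of 8 higher beside 6.2%, and 0 of 8 lower beside 3.97%. CTL and KD values did not overlap for 4 of 8 genes, *Tmprss2*, *Tmprss4*, *Spint1* and *Spint2*, beside 21.5% of all genes. These counts were not tested against the shares of all genes.

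**Figure D1:**
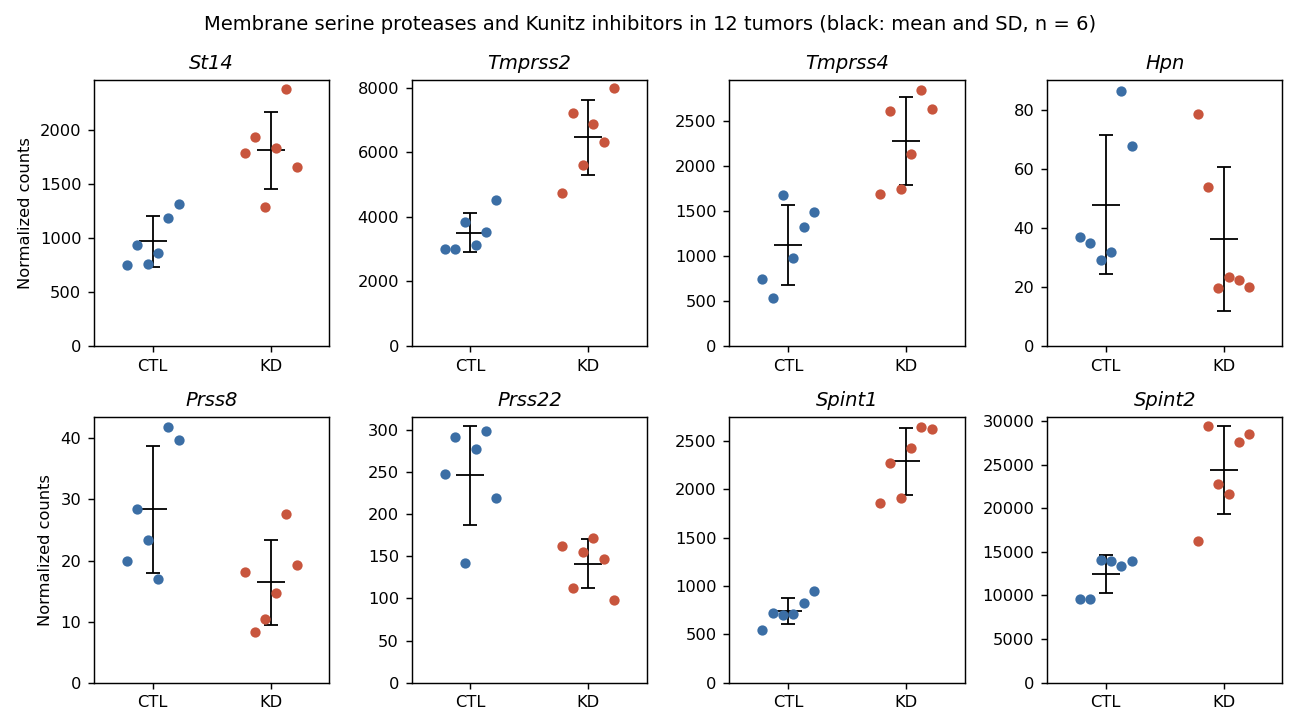
Normalized counts (vertical axes, each from 0) of the 8 genes in 6 CTL tumors (blue) and 6 *Filip1l*-knockdown tumors (red), with 1 point per tumor and the mean and SD in black. The groups stand apart for *Tmprss2*, *Tmprss4*, *Spint1* and *Spint2*, and overlap for *St14*, *Prss8*, *Prss22* and *Hpn*.

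Among the inhibitors, *Spint1* (ENSMUSG00000027315, chr2:119237362-119249527) encodes the type 1 inhibitor, which forms complexes with matriptase. It was lowest at 545.0, had a median of 714.6 and reached 946.9 normalized counts in CTL tumors, and was at 1853, 2349 and 2642 in the same order in KD tumors. The lowest KD tumor was above the highest CTL tumor. The means were 742 ± 135 and 2288 ± 343 (SD, 6 tumors each), which on the log2 scale is a rise by 1.63 with a standard error of 0.13 and a 95% interval from 1.36 to 1.90 (limma, adjusted p = 4.08e-07). Permuting the group labels in every possible way, an exact and two-sided test, gave p = 0.00216, the smallest value that 6 against 6 tumors allow.

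*Spint2* (ENSMUSG00000074227, chr7:29256323-29281912) encodes the type 2 inhibitor, which also blocks prostasin and hepsin. In CTL tumors it ran from 9583 through a median of 13633 to 14048 normalized counts, and in KD tumors from 16251 through 25206 to 29460. Here too no KD tumor reached down to the CTL tumors, although KD tumor 1, at 16251, lay nearer to them than to the other KD tumors. From 12416 ± 2180 to 24372 ± 5079 (SD, 6 tumors each), it changed by 0.96 ± 0.15 (log2, SE) with an interval of 0.64 to 1.29 (limma, adjusted p = 0.000167, exact permutation p = 0.00216). It stood just under the fold threshold, and without KD tumor 1 it was 1.08.

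Of the proteases, *St14* (ENSMUSG00000031995, chr9:31089402-31131853) encodes matriptase. CTL tumors ran from 749.0 through a median of 900.8 to 1318 normalized counts and KD tumors from 1289 through 1811 to 2380. A single KD tumor, KD 3, was below the highest CTL tumor, and the other 5 were above all CTL tumors. The means were 968 ± 233 and 1813 ± 357 (SD, 6 tumors each), and the change was 0.92 ± 0.16 (log2, SE) with an interval of 0.58 to 1.25 (limma, adjusted p = 0.000352, exact permutation p = 0.00433). Without KD tumor 3 the log2 fold change was 1.01, past the fold threshold.

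*Tmprss2* (ENSMUSG00000000385, chr16:97564682-97611195), known as an androgen-responsive gene of prostate epithelium and for cutting viral spike proteins, was at 3002, 3332 and 4535 normalized counts as lowest, median and highest of the CTL tumors. The KD tumors were at 4754, 6607 and 7997, all above the CTL tumors. From 3508 ± 602 to 6466 ± 1161 (SD, 6 tumors each), the change was 0.88 ± 0.13 (log2, SE), interval 0.60 to 1.15 (limma, adjusted p = 9.0e-05, exact permutation p = 0.00216). Among the 8 genes its spread within CTL tumors was the smallest, at 17.2% of the mean.

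*Tmprss4* (ENSMUSG00000032091, chr9:45172726-45204092), a transmembrane protease often raised in carcinomas, varied more between CTL tumors, from 532.2 through 1150 to 1672 normalized counts. In KD tumors it ran from 1689 through 2370 to 2837, so that the lowest KD tumor exceeded the highest CTL tumor by a narrow margin. The means of 1123 ± 445 and 2273 ± 489 (SD, 6 tumors each) gave a log2 fold change of 1.10 ± 0.25 (SE), interval 0.56 to 1.63 (limma, adjusted p = 0.00279, exact permutation p = 0.00216). Its place past the fold threshold rested on the 2 lowest CTL tumors, since it was 0.90 without CTL tumor 2 and 0.999 without CTL tumor 1. Annotated on the other strand, *Gm17099* shares 361 bases with its transcript, and whether the counting used strand is not given in the sources used here.

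*Prss22* (ENSMUSG00000045027, chr17:23993534-23998100) encodes an airway trypsin-like protease known to activate the urokinase precursor. It had 141.9, 262.1 and 298.8 normalized counts as lowest, median and highest of the CTL tumors and 98.7, 151.2 and 171.3 in KD tumors. All 6 KD tumors were below the CTL median, and 2 of them below every CTL tumor, the overlap coming from CTL tumor 3 alone. From 246 ± 58.9 to 141 ± 29.1 (SD, 6 tumors each), it fell by 0.78 on the log2 scale with a standard error of 0.19, interval -1.19 to -0.37 (limma, adjusted p = 0.00463, exact permutation p = 0.0108).

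*Prss8* (ENSMUSG00000030800, chr7:127925716-127930104), the gene of the lipid-anchored protease prostasin, was low in all tumors, at 16.9, 25.9 and 41.8 normalized counts in CTL and 8.33, 16.4 and 27.7 in KD tumors (lowest, median, highest). The groups overlapped, with 3 of the 6 KD tumors below all CTL tumors. Means were 28.4 ± 10.3 and 16.4 ± 6.95 (SD, 6 tumors each), and counting error alone would give SDs of 5.54 and 3.94. The log2 fold change of -0.78 ± 0.32 (SE) had an interval of -1.46 to -0.09 and did not pass after adjustment (limma, adjusted p = 0.0655, exact permutation p = 0.0411), although the limma adjusted p was 0.0428 without CTL tumor 4 and 0.0313 without KD tumor 5. Its transcript shares 122 bases with *Kat8* on the opposite strand, a histone acetyltransferase gene that went from 545 to 417 normalized counts (log2 fold change -0.38, limma, adjusted p = 0.000415).

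*Hpn* (ENSMUSG00000001249, chr7:31098725-31115290) encodes hepsin, a transmembrane protease abundant on hepatocytes. It was at 29.2, 36.02 and 86.6 normalized counts in CTL and 19.8, 23.0 and 78.7 in KD tumors (lowest, median, highest). Values overlapped over most of their range, as 4 KD tumors were below all CTL tumors and the other 2 were among the 4 highest of the 12. From 47.9 ± 23.6 to 36.4 ± 24.5 (SD, 6 tumors each), the log2 fold change was -0.48 ± 0.39 (SE), interval -1.31 to 0.35 (limma, adjusted p = 0.345, exact permutation p = 0.281). Counting error alone would give SDs of 7.30 and 6.01, so the spread was mostly between tumors, and the value was -0.29 without CTL tumor 5 and -0.74 without KD tumor 1.

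Hepatocyte markers were set beside *Hpn* in each tumor. The 10 markers, all measured, summed to between 367 and 8980 normalized counts in CTL and between 1405 and 9763 in KD tumors. Of the 10, 2 were called higher and 0 lower, beside 6.2% and 3.97% of all genes, with a median log2 fold change of 0.78. The 3 tumors with the largest sums were CTL 5 (8980), KD 1 (7464) and KD 2 (9763), where *Alb* was at 5043, 3646 and 5010 and *Hpn* at 86.6, 78.7 and 54.1. In the other 9 tumors *Alb* was at most 533. There the summed markers and *Hpn* did not run together. KD tumors 3 to 6 had larger sums (1405 to 3112) than CTL tumors 1 to 4 (367 to 1259) and lower *Hpn*. CTL tumor 6 had *Hpn* at 67.9 with a sum of 1501. The sums include the 2 called markers, *Apoa1* at 155 ± 232 in CTL and 1079 ± 325 in KD tumors and *Ttr* at 448 ± 137 and 938 ± 259 (SD, 6 tumors each). *Alb* was at 20.9, 11.7 and 25.1 in KD tumors 3 to 5, below the lowest CTL tumor at 27.5, and at 533 in KD tumor 6. With CTL 5, KD 1 and KD 2 left out, a choice made after seeing the data, *Hpn* was at -0.81 (limma, adjusted p = 0.0345). It was lower in KD but still under the fold threshold, and *Spint2* at 1.05 passed both thresholds. The part of hepatocyte RNA in the *Hpn* values of the full comparison was not tested.

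**Figure D2:**
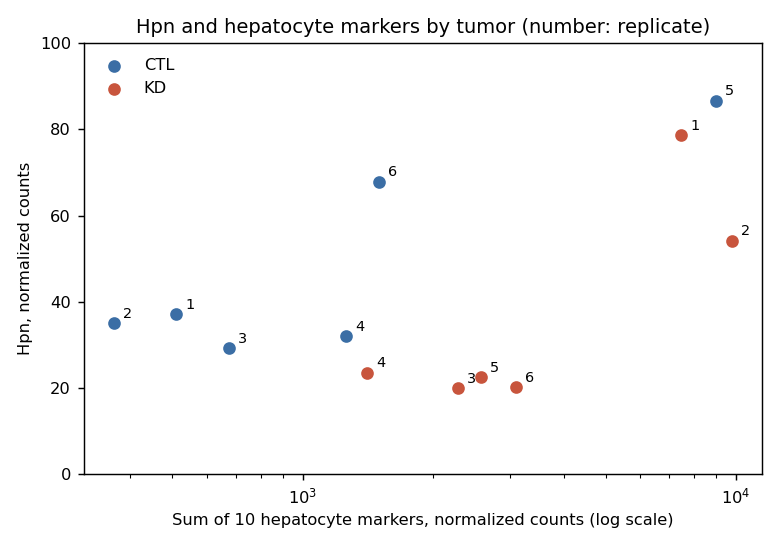
*Hpn* (vertical axis, normalized counts) against the sum of 10 hepatocyte markers (horizontal axis, normalized counts, log scale), with 1 point per tumor numbered by replicate, CTL in blue and knockdown in red. CTL 5, KD 1 and KD 2 lie far to the right and hold 3 of the 4 highest *Hpn* values, and the other 4 KD tumors sit between 19.8 and 23.5.

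Levels of different genes can be compared only per length, here as normalized counts per kilobase of the longest coding principal transcript. In CTL tumors *Spint2* led at 8971 ± 1575 per kilobase, followed by *Tmprss2* at 1110 ± 190 and *Tmprss4* at 491 ± 195. *Spint1* at 319 ± 58.3 and *St14* at 297 ± 71.6 came next, and *Tmprss4*, *Spint1* and *St14* overlapped each with its neighbour. *Prss22* at 186 ± 44.5 stood below them, and *Hpn* at 27.2 ± 13.4 and *Prss8* at 15.3 ± 5.58 closed the order and overlapped. In KD tumors the order was the same, with *Tmprss4* at 995 ± 214 and *Spint1* at 985 ± 148 side by side and *St14* at 556 ± 109 now clear of both. By the length of all annotated exons together, CTL tumors had *Prss22* above *St14* and *Prss8* above *Hpn*, so those neighbours cannot be ordered. By that length *Tmprss2* and *Tmprss4* were close, at means of 480 and 434 per kilobase in CTL and 886 and 878 in KD tumors. The size of the lead of *Tmprss2* therefore depends on the length used.

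Summed per kilobase, the 2 inhibitors exceeded the 6 proteases in every tumor. The sum of the inhibitors over that of the proteases was 3.86 at its lowest, 4.22 at its median and 5.38 at its highest in CTL tumors, and 4.22, 5.09 and 5.63 in KD tumors. The ranges overlapped over most of their width. The highest CTL value was that of CTL tumor 4, and the next was 4.52 in CTL tumor 3. The size of this ratio depends on the length used, and by all annotated exons together it was 2.16 to 2.88 in CTL and 2.51 to 3.27 in KD tumors. By that length only CTL tumor 4 reached into the range of the KD tumors. The difference between the groups in this ratio was not tested. By the transcript length, *Spint2* made up 95.7% to 97.1% of the inhibitor sum in CTL and 93.6% to 95.6% in KD tumors. *Spint1* thus gained in share but remained the minor inhibitor by transcript. These shares also depend on the length. By all annotated exons, mean *Spint2* and *Spint1* were 2725 and 268 per kilobase in CTL and 5349 and 827 in KD tumors.

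The ratio of a protease to its inhibitor within a tumor does not depend on how the libraries were scaled, and 4 such ratios were compared. For *St14* to *Spint1* the log2 ratio lay from 0.11 to 0.51 in CTL and from -0.66 to -0.05 in KD tumors, so all 6 KD tumors were below all CTL tumors. The mean went from 0.37 ± 0.15 to -0.34 ± 0.24 (SD, 6 tumors each), a difference of -0.71 with a 95% interval of -0.97 to -0.45 (exact permutation p = 0.00216, 0.00289 adjusted over the 4 ratios). Matriptase transcripts rose, and those of this inhibitor rose more.

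For *St14* to *Spint2* no such difference was detected. The log2 ratio lay from -4.21 to -3.35 in CTL and from -4.14 to -3.19 in KD tumors, with 3 of 6 KD tumors below the CTL median. Means of -3.69 ± 0.35 and -3.74 ± 0.38 (SD, 6 tumors each) differed by -0.05, with an interval of -0.52 to 0.44 (exact permutation p = 0.823, adjusted 0.823). The interval allows a change of either sign, and leaving out single tumors turned the sign.

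The ratios of *Prss8* were lower in all 6 KD tumors than in any CTL tumor. Against *Spint1* the log2 ratio ran from -5.30 to -4.28 in CTL and from -7.93 to -6.53 in KD tumors, a difference of -2.41 with an interval of -3.0 to -1.85. Against *Spint2* it ran from -9.60 to -8.29 and from -11.62 to -9.73, a difference of -1.74 with an interval of -2.53 to -0.96. Each had an exact permutation p of 0.00216 and 0.00289 after adjustment. Both ratios contain the rise of the inhibitor given above, and they are no further observation on *Prss8*, whose own change did not pass.

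**Figure D3:**
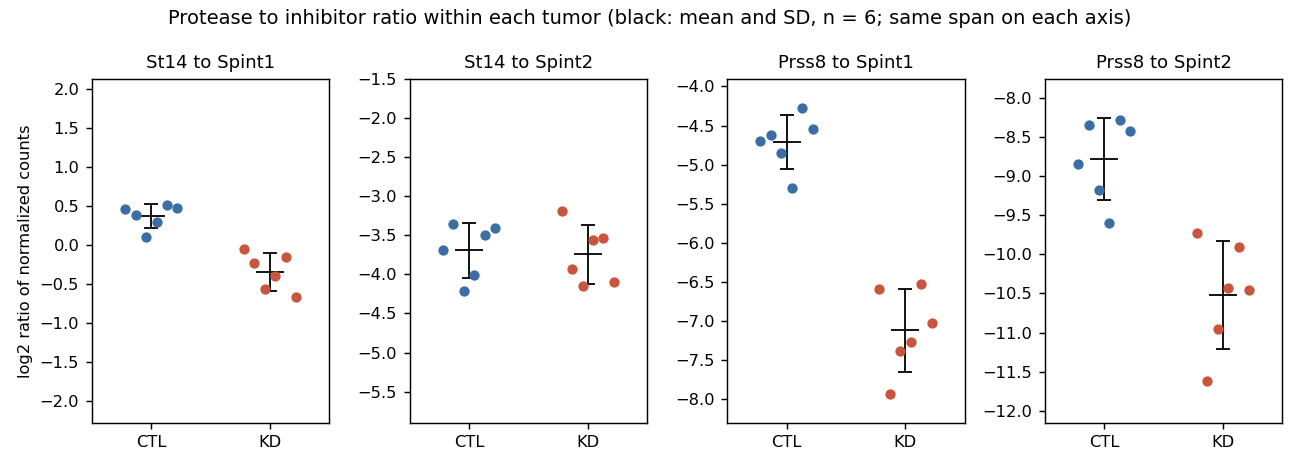
log2 ratio of protease to inhibitor normalized counts (vertical axes, of equal span but different range) in 6 CTL tumors (blue) and 6 knockdown tumors (red), with the mean and SD in black. *St14* to *Spint2* overlaps between the groups, with means of -3.69 and -3.74, and the other 3 ratios are lower in every knockdown tumor than in any CTL tumor.

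Since the epithelium markers rose with the knockdown, the 8 genes were also set against the mean log2 value of the 16 markers in each tumor. This scale moved the median of all genes to -0.85, and values are given as they stand on it. *Spint1* stayed higher at 0.78 (limma, adjusted p = 2.9e-06), now under the fold threshold. *St14*, *Tmprss2*, *Tmprss4* and *Spint2* were at 0.06, 0.02, 0.24 and 0.11, none with an adjusted p under 0.05. *Prss8* at -1.63, *Prss22* at -1.64 and *Hpn* at -1.34 were past both thresholds downward, 3 of 8 beside 32.3% of all genes, and 0 of 8 upward beside 2.37%. With the whole table moved down, these 3 calls are no result about the 3 genes. *St14*, *Tmprss2*, *Tmprss4* and *Spint2* moved in the same direction as the marker list. Their values near 0 depend on the average used, since the marker mean rose by 0.85 and the marker median by 0.61. In bulk tumors more epithelial cells and more RNA per cell cannot be told apart. The markers did not move as a block, since *Cldn3* was at 3.76, *Cdh1* at 0.01 and *Esrp2* at 0.02 in log2 fold change.

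**Figure D4:**
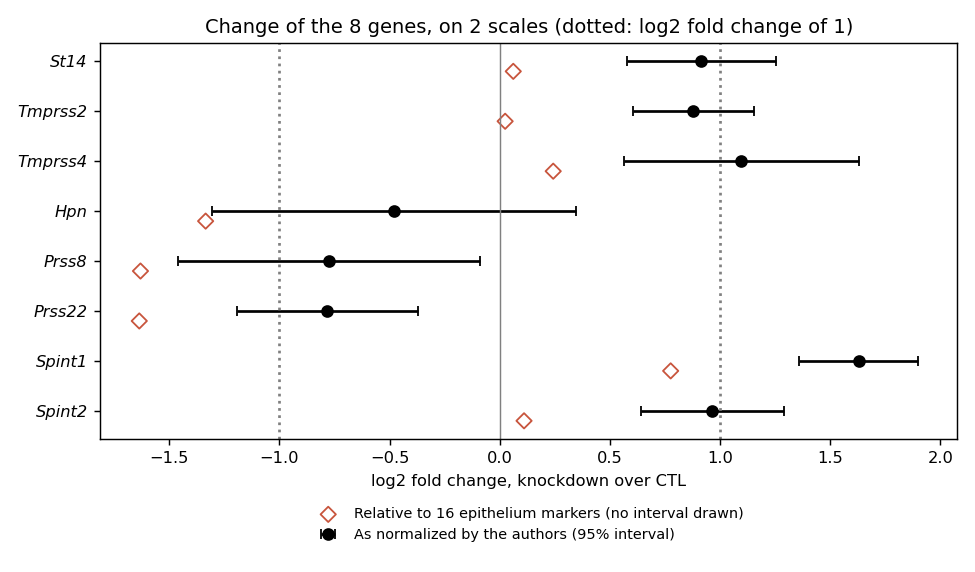
log2 fold change of knockdown over CTL tumors (horizontal axis) for the 8 genes, as normalized by the authors (black, with the 95% interval) and relative to 16 epithelium markers (open diamonds, no interval drawn). On the second scale *St14*, *Tmprss2*, *Tmprss4* and *Spint2* lie between 0.02 and 0.24, *Spint1* is at 0.78, and *Hpn*, *Prss8* and *Prss22* are below -1.

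Marker lists of other cell types differed in how they moved. Their counts stand beside 6.2% of all genes called higher, 3.97% called lower and 41.9% past the p threshold alone. Fibroblast markers, all 10 measured, summed to between 172163 and 287927 normalized counts in CTL and between 81127 and 265183 in KD tumors, with 0 called and 3 lower by adjusted p alone. Endothelium had 6 of 8 higher by adjusted p and 0 called, leukocyte markers 3 of 11 called higher, mast cell markers 2 of 10 called higher and 1 lower, and adipocyte markers 2 of 4 higher. Skeletal muscle markers had 10 of 12 called higher and a median log2 fold change of 1.93. Skin epidermis, the host epithelium nearest to a subcutaneous tumor, had 0 of 9 called higher and 1 lower, and sums of 1266 to 4132 in CTL and 1729 to 3994 in KD tumors. Their part in the values of the 8 genes was not tested.

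Few other membrane serine proteases were measured. Of 20 listed, 5 were among the genes analysed, each with a mean under 25 normalized counts in either group. *Prss27*, a trypsin-like protease gene of stratified epithelium, was called higher, from 7.34 ± 3.17 to 18.5 ± 5.76 normalized counts (SD, 6 tumors each), which is 1.27 as log2 fold change (limma, adjusted p = 0.00902). *Prss30* was at 0.76 (limma, adjusted p = 0.0619), and *Tmprss6*, *Tmprss11b* and *Tmprss11e* were between -0.34 and -0.31 and did not pass. The median was -0.31, and 1 of the 5 was called, beside 10.2% of all genes.

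In a list of substrates, receptors and related genes of these proteases, 13 of 17 were measured. Of these 3 were called higher and 1 lower, beside 6.2% and 3.97% of all genes. *Epcam*, an epithelial adhesion protein that matriptase is known to cut, rose by 1.51 on the log2 scale, from 5448 ± 1227 to 15465 ± 3290 normalized counts (limma, adjusted p = 5.79e-06). Its partner at the lateral membrane *Cldn7* rose by 2.31 (limma, adjusted p = 1.0e-06), from 420 ± 135 to 2022 ± 398. *Hgfac*, the hepatocyte growth factor activator that both Kunitz inhibitors block, rose by 1.65 (limma, adjusted p = 7.51e-06), from 799 ± 137 to 2561 ± 693 (SD, 6 tumors each). *Cdcp1*, a membrane glycoprotein cut by serine proteases, fell by 2.42 (limma, adjusted p = 0.000113), from 311 ± 185 to 55.7 ± 27.4.

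The remaining genes of the list did not pass both thresholds. *Mst1r*, the receptor of macrophage-stimulating protein, was at 0.63, *Egfr* at 0.52 and *F2rl1*, the protease-activated receptor cut by matriptase, at 0.45, each with an adjusted p under 0.001 by limma. *Scnn1a*, a subunit of the sodium channel that prostasin activates, was at -0.71 (limma, adjusted p = 0.00128). *Hgf*, *Met*, *Plau*, *Plaur* and *Fgfr2* lay between -0.12 and 0.17 and did not pass. In all, 6 of 13 were higher and 2 lower at an adjusted p under 0.05, beside 41.9% of all genes in either direction. The median was 0.17. Relative to the epithelium markers 1 of the 13 was called higher and 2 lower, beside 2.37% and 32.3% of all genes.

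Other genes with a Kunitz domain did not move with *Spint1* and *Spint2* as a group. Of 17 listed, 9 were measured, with a median log2 fold change of 0.04. Of these 1 was called higher and 2 lower, beside 6.2% and 3.97% of all genes. *Aplp2*, an amyloid precursor relative, rose by 1.22 (limma, adjusted p = 2.07e-07), while *Tfpi2*, an inhibitor laid down in the matrix, fell by 1.54 (limma, adjusted p = 8.98e-05) and the anchoring fibril collagen *Col7a1* fell by 1.59 (limma, adjusted p = 0.000499). *App* was at 0.04, with 33171 ± 1422 normalized counts in CTL tumors, and did not pass. Relative to the epithelium markers 0 of the 9 were called higher and 4 lower, beside 2.37% and 32.3% of all genes. Of 11 measured inhibitors of trypsin-like proteases from other families, *A2m*, a plasma protease trap, fell by 1.22 (limma, adjusted p = 0.00335). It was the only call, beside 10.2% of all genes, and the median was 0.31.

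**Figure D5:**
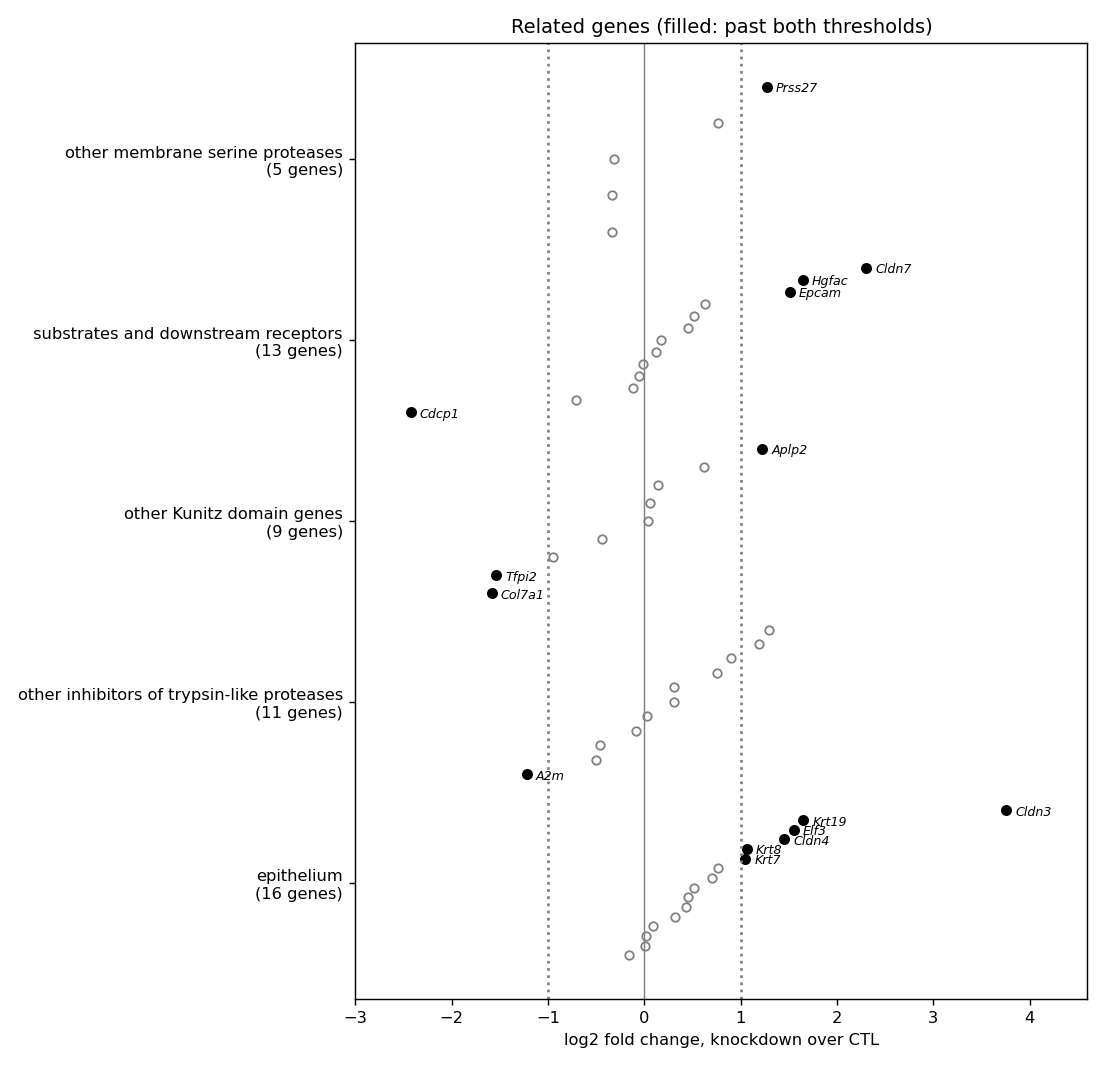
log2 fold change of knockdown over CTL tumors (horizontal axis) for each measured gene of 5 lists (rows), filled and named where both thresholds were passed, with dotted lines at -1 and 1. The list of substrates, receptors and related genes runs from *Cdcp1* at -2.42 to *Cldn7* at 2.31, and other Kunitz genes lie on both sides of 0. Of the epithelium markers 6 of 16 are called higher, beside 6.2% of all genes.

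For each of the 8 genes the most similar genes over the 12 tumors were sought, by the root-mean-square difference of log2 values after each gene's mean was removed, where a smaller value is closer. *Spint2* had the closest, *Slc35c1* at 0.0994 and *Paqr4* at 0.110, followed by *Tmprss2* with *Ick* at 0.128 and *Fuca1* at 0.133. *Spint1* was followed by *Anxa11* at 0.129 and *Pter* at 0.155, and *St14* by *Cgn*, the gene of the tight junction protein cingulin, at 0.155 and *Mgat4a* at 0.174. *Tmprss4* had *Tmem150b* at 0.165 and *Gsta3* at 0.174, and *Prss22* had *Ssx2ip* at 0.151 and *3110039I08Rik* at 0.164. The low genes had more distant neighbours, *Smarca1* at 0.265 and *Fbxl16* at 0.350 for *Prss8*. For *Hpn* they were *Slc38a4* at 0.451 and *Slc25a47* at 0.463, both known as genes of hepatocytes. All of the tumors in these measures share the 2 groups, so they describe a pattern and are no test.

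The promoters of *Spint1* and *Spint2* were searched for 4 short motifs on both strands, in the 250 bases before the RefSeq start (GRCm38.p6). Both inhibitor genes rose, by log2 fold changes of 1.63 and 0.96, and *St14*, *Tmprss2* and *Tmprss4* rose too. The motifs were ACCGGT, a core bound by grainyhead factors of epithelium, CACCTG, bound by Snail and Zeb repressors of epithelial genes, GGGCGG and TATAAA, and none of them contains another. The windows below are shown because they hold the first 2 motifs, in capitals as read on the strand of the gene.
Spint1 promoter: ctgctgggcaggACCGGTgggagtacaacc
Spint2 promoter: tgcCAGGTGcaggccgcagagcCAGGTGcg

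The *Spint1* window is chr2:119237271-119237300 on the plus strand, with ACCGGT starting 77 bases before the start of the gene, and 1.86% of 32851 mouse promoters of this length hold that motif. The *Spint2* window is chr7:29282025-29282054 on the minus strand and holds CACCTG on the opposite strand at 74 and 55 bases before the start, and another lies at 9 bases. At least 1 CACCTG is found in 17.2% of promoters. GGGCGG occurred 3 times in each promoter and in 32.7% of all, and TATAAA, found in 12.4%, in neither. These shares count promoters with at least 1 match and take no account of base composition. GC content was 72.8% in the *Spint1* and 69.6% in the *Spint2* promoter, against a median of 52.4% over all promoters. *Spint1* had no CACCTG and *Spint2* no ACCGGT in these windows of 250 bases. In *Tmprss2* none of the 4 motifs was found, *Hpn* had 2 CACCTG in the first of its 2 promoters, and the other 4 genes had no entry. These are matches of letters, and no binding was measured.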

How the data were processed

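Total RNA of 12 snap-frozen tumors, 6 CTL and 6 *Filip1l*-knockdown by the sample labels, was made into libraries after selection of polyadenylated RNA. According to the methods of the study and the submitters' processing notes, reads were converted with bcl2fastq 2.20, trimmed with Trimmomatic 0.36, aligned with STAR 2.5.2b to mm10 and counted per gene with featureCounts of Subread 1.5.2. The authors divided the counts by DESeq2 size factors before they were deposited, so the values are a normalized signal, comparable between tumors for each gene and not corrected for length. All listed genes had a mean of at least 5 normalized counts, so the filter at that mean removed 0 genes. Fold changes are differences of log2(value + 1), which understates the change of low genes.

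For the group comparison, all 15687 genes entered 1 limma fit (version 3.58.1, R 4.3.3) that lets the variance depend on the mean level. Benjamini-Hochberg adjustment covered the whole table, and a call needed both an adjusted p below 0.05 and a log2 fold change beyond 1 in either direction, as in the methods of the study. On simulated data for 15598 genes, 199 of 200 changed genes were called and 0 unchanged ones. This gave no separate result for genes close to the fold threshold, and calling there was not tested. Nor was it tested with as many genes changed as in the tumors, where 41.9% passed the p threshold. Single values were also tested by exact two-sided permutation of the tumors, and ratio intervals came from inverting that test. Symbols, positions and lengths came from GENCODE vM21 on GRCm38, the build also called mm10, where 15655 identifiers (99.8%) matched. Promoters came from RefSeq, with entries for 4 of the 8 genes. Plots used matplotlib 3.10.9 (Python 3.11.15).

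The 8 genes and the lists were chosen with earlier results of these data known, and support nothing by their choice. Named are the 8 genes, *Filip1l*, the called genes of each pathway list, and for each of the 8 genes its 2 nearest genes whose mean reached 50 normalized counts. Outside that rule, after their values were seen, other list members, marker genes and *Kat8* are given with values. Tried besides were a pseudocount of 0.5 or 8, a filter of none or 20, scaling to the 75th percentile, to the same total or to epithelium markers, subtraction of chromosome medians, limma without a trend, the replicate number as a block, and leaving out tumors. The values of 1 further list gene are not reported here.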

Additional observations from a re-analysis of the deposited data

How the results depend on the processing

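Of the 8 genes, the direction in KD tumors held under every alternative, and whether a gene passed both thresholds together held except as follows. Relative to the epithelium markers *Prss8* was at -1.63, *Prss22* at -1.64 and *Hpn* at -1.34, past both thresholds, while *Tmprss4* at 0.24 and *Spint1* at 0.78 were not, so 0 of the 8 were called higher and 3 lower. *St14* at 0.06, *Tmprss2* at 0.02 and *Spint2* at 0.11, like *Tmprss4*, no longer had an adjusted p under 0.05 by limma. On that scale the other membrane proteases had 3 calls and the inhibitors of other families 2, all lower. The list of substrates, receptors and related genes went from 3 higher and 1 lower to 1 higher and 2 lower. The other Kunitz genes went from 1 higher and 2 lower to 0 and 4. Calls over the whole table numbered 5439, of which 372 were higher. Other membrane proteases had 0 calls with a pseudocount of 8 or a filter at a mean of 20, which leaves out *Prss27*. Without the 3 tumors with the most hepatocyte RNA, added after seeing the data, *Spint2* was called at 1.05, beside *Spint1* and *Tmprss4*. The inhibitors of other families then had 2 calls. The share of all genes called in that fit is not reported here.

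Leaving out each tumor in turn gave *Hpn* -0.74 to -0.29, *Prss8* -0.94 to -0.62, with an adjusted p by limma of 0.0428 without CTL 4 and 0.0313 without KD 5, and *St14* 0.83 to 1.01, past the fold threshold without CTL 6 or KD 3. *Tmprss4* was at 0.90 to 1.23, under it without CTL 1 or CTL 2, and *Spint2* at 0.89 to 1.08, past it without CTL 3, CTL 4, CTL 6 or KD 1. Genes called higher numbered 1 without CTL 1 or CTL 2 and 4 without CTL 6. Inhibitors of other families had 1 to 2 calls, 2 without CTL 4 or KD 1. The *St14* to *Spint2* ratio ran from -0.16 to 0.031 and changed sign without CTL 2 (0.02), CTL 6 (0.01), KD 3 (0.031) or KD 6 (0.02). The cause of these shifts was not tested.

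With the replicate number as a block no call of the 8 genes or the 4 lists changed, with *Spint1* at 1.63 and *Tmprss4* at 1.10 as without it, and 1554 genes were called over the table against 1596. The labels do not say that a number pairs tumors, and the same-numbered tumors correlated at -0.27 to 0.10. Depth limits *Prss8*, where counting error is a large part of the spread, and the spread between tumors limits *Hpn*.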
